A study of Mus musculus with 4 samples.

Results

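The common gamma chain cytokine receptors were followed in the mRNA libraries of alpha lymphoid progenitors (αLPs) from mouse bone marrow. The 7 genes, Il7r, Il2rg, Il2ra, Il2rb, Il4ra, Il9r and Il21r, were chosen by name, and all 7 had a row in both count tables, which shared 23058 genes. αLPs are Lin−CD127+FLT3−LPAM-1+ cells, the population in which innate lymphoid cell progenitors (ILCPs) and group 2 innate lymphoid cells (ILC2s) of the marrow are found. They were sorted from C57BL/6 wild-type (WT) mice and from G3SEKO mice, which lack the tandem super-enhancers linked to Gata3 in every cell of the body, and each of the 2 experiments pooled several mice of each genotype in 1 library, told apart by hashtag antibodies against MHC class I. In experiment 1, 3 hashtags marked WT and the other 3 G3SEKO cells. In experiment 2, A0302 marked WT cells and A0303 was read as G3SEKO, although the label lists both under WT, so each G3SEKO value of experiment 2 rests on that reading. A genotype in an experiment counted as 1 sample, since no source ties a hashtag to a mouse, and p-values measure only the spread between these samples.

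The common gamma chain, encoded by Il2rg, is a signalling subunit that several cytokine receptors share. Il7r encodes the IL-7 receptor alpha chain (CD127), Il2ra the high-affinity alpha chain for IL-2 (CD25), Il2rb the beta chain used by IL-2 and IL-15, Il4ra the alpha chain for IL-4, which also serves IL-13, and Il9r and Il21r the private chains for IL-9 and IL-21. The assembled receptors act through JAK1 and JAK3, mainly on STAT5, with STAT6 for IL-4 and STAT3 for IL-21. In innate lymphoid cells, IL-7 maintains progenitors, IL-2 and IL-9 sustain ILC2s, and IL-15 sustains NK cells and ILC1s.

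Cells were placed in groups by a gate gene at or above 1 on the scale ln(1 + reads per 10000 reads), which equals 172 counts in 1000000 reads (CPM). The gates were Zbtb16 (the ILCP factor PLZF), Icos (a co-stimulatory receptor gained with ILC2 commitment), Il1rl1 (ST2, the IL-33 receptor of ILC2s), Ccr6 (a chemokine receptor of lymphoid tissue inducer cells) and Eomes (a T-box factor of NK cells). A cell past several gates was given to Il1rl1, Ccr6, Eomes, Zbtb16 or Icos, in that order. Of the cells with at least 1 on the same scale for Id2, 724 were kept in experiment 1 and 6289 in experiment 2, with median depths of 396198 and 509911 reads per WT and G3SEKO cell in experiment 1 and of 29677 and 42814 in experiment 2. WT cells numbered 88 Zbtb16, 80 Icos, 424 Il1rl1 and 25 Eomes cells in experiment 1, and 216, 564, 3548 and 25 with 38 Ccr6 cells in experiment 2. G3SEKO cells numbered 17 Zbtb16 and 6 Icos cells in experiment 1, and 355 Zbtb16, 50 Il1rl1, 107 Ccr6 and 42 Eomes cells in experiment 2, with Icos cells that numbered 265 at or above and 47 below the same limit for Il18r1. Sums of fewer than 5 cells were left out, so that 16 sums remained. The Ccr6 cells of both genotypes and the Il1rl1 and Eomes cells of G3SEKO came from experiment 2 alone and were assumed to vary like the others. Since counts are summed over pooled cells, a lower sum cannot tell fewer expressing cells from less RNA per cell.

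The marker lists include the gate genes, so that their sums are in part fixed by the gates and describe the groups without testing their names. The summed level of the ILCP list (Zbtb16, Pdcd1, Tox, Tox2, Tcf7) was between 3926 and 4358 CPM in the Zbtb16 cells and 201 and 151 CPM in the WT Il1rl1 cells. Tcf7, which is no gate gene, gave between 1354 and 1657 CPM of it in the Zbtb16 cells. The lymphoid tissue inducer list reached 1736 and 2084 CPM in the Ccr6 cells of WT and G3SEKO, of which Ccr6 itself gave 1113 and 1197 CPM. The NK and ILC1 list was 2031 and 959 CPM in WT Eomes cells and 1805 CPM in G3SEKO Eomes cells, of which Eomes itself gave 1025, 609 and 885 CPM. In the Eomes cells of experiment 2 the ILCP list was higher than the NK and ILC1 list, with 3291 CPM for WT and 2735 CPM for G3SEKO. The list for ST2+ ILC2s was as high in WT Zbtb16 cells (3510 and 3625 CPM) as in WT Il1rl1 cells (3869 and 3428 CPM), with Rora its highest gene in the former, so that the groups are named here by their gate genes alone. Il5 and Il13, cytokines of mature ILC2s, were at 0 in the Ccr6 cells of both genotypes, in the WT Eomes cells of both experiments and in the G3SEKO Eomes cells. The myeloid list was at or below 15.0 CPM in all 16 sums and the B-cell list at or below 104 CPM. Gata3 stood at 862 and 782 CPM in WT Zbtb16 cells and at 937 and 498 CPM in G3SEKO Zbtb16 cells of experiments 1 and 2. It stood at 1209 and 1004 CPM in WT Icos cells against 763 and 461 CPM in G3SEKO, and at 1039 CPM in WT Il1rl1 cells of experiment 2 against 294 CPM in G3SEKO.

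The 7 genes lie on 5 chromosomes of the GENCODE M21 annotation (GRCm38, the build of the submitters' processing notes). Il7r spans chr15:9505788-9530176 and Il2rb chr15:78479256-78495271, both on the minus strand. Il2rg spans chrX:101264378-101268255 and Il9r chr11:32187541-32200279, also on the minus strand. Il4ra (chr7:125552120-125579474) and Il21r (chr7:125603429-125633570) are neighbours on the plus strand, 23954 bases apart. Il2ra (chr2:11642807-11693193, plus strand) lies 12096 bases from Il15ra, the alpha chain for IL-15, and 1752772 bases from Gata3 on the same chromosome.

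RefSeq promoter windows of 300 bases (250 before to 50 after the annotated start, GRCm38.p6) were found for 6 of the 7 genes, all but Il2rb. They were searched on both strands for the GATA word AGATAA with its variant AGATAG, for TGATAA with its variant TGATAG, and for the STAT motif, TTC and GAA with any 3 bases between, which reads alike on both strands. The windows of Il9r, Il2ra and Il7r are shown because Il9r and Il2ra carry the genotype comparisons given later and Il7r encodes the protein the cells were sorted on. Capitals mark the matches.
Il9r, chr11:32200230-32200529, minus strand: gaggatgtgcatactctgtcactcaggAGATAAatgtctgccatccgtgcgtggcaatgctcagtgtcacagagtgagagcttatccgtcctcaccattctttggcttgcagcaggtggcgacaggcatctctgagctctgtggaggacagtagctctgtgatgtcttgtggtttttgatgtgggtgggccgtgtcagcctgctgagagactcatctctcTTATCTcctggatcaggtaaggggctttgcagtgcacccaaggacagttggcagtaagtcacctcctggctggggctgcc
Il2ra, chr2:11642542-11642841, plus strand: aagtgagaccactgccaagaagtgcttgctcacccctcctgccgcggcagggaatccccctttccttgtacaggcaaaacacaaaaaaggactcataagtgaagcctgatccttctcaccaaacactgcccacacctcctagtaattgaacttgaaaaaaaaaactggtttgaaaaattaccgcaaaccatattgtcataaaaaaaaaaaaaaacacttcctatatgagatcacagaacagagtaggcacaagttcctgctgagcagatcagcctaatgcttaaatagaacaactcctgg
Il7r, chr15:9529827-9530126, minus strand: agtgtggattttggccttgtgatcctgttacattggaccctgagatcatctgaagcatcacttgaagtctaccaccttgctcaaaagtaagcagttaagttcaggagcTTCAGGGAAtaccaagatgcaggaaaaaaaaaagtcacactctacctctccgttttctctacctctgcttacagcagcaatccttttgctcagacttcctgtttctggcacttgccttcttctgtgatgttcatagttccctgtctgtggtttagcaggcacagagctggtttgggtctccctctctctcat
The Il9r window held 2 GATA matches, 223 and 30 bases before the start, and no STAT match. The Il7r window held 1 STAT match and no GATA match, and the Il2ra window held neither. The RefSeq and GENCODE starts of Il7r differ, and this window lies wholly inside the GENCODE span of Il7r given above. The STAT match is thus not upstream of the GENCODE start. Of the other windows, that of Il21r held 1 GATA match and those of Il2rg and Il4ra held neither motif. A GATA match was present in 29.8% and a STAT match in 8.30% of 32851 promoter windows of the same length, so these matches are a description of the letters only.

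Il7r and Il2rg, whose products together form the IL-7 receptor, were read in every group. Il7r stood at 1714 and 2319 CPM in WT Zbtb16 cells of experiments 1 and 2, at 1643 and 1589 CPM in WT Icos cells, at 1866 and 2096 CPM in WT Il1rl1 cells, and at 1356 and 3161 CPM in WT Eomes cells. WT Ccr6 cells of experiment 2 had 3503 CPM. The order of the other 4 groups differed between experiments, and only the Ccr6 cells lay above the range of the others. CD127 was a sort gate, so these levels describe cells selected for the product of Il7r.

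Il2rg was higher in Icos than in Zbtb16 cells and higher still in Il1rl1 cells in both experiments. In WT cells of experiment 1 it was 312.3 CPM in Eomes, 374 in Zbtb16, 524 in Icos and 625 in Il1rl1 cells. In experiment 2 the Zbtb16 and Eomes cells, at 473 and 493 CPM, lay closest together, followed by 621 CPM in Icos, 745 in Il1rl1 and 955 CPM in Ccr6 cells. The Zbtb16 and Eomes cells did not differ beyond the spread between experiments, and the Il1rl1 cells lay above the Zbtb16 cells in both.

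**Figure D1:**
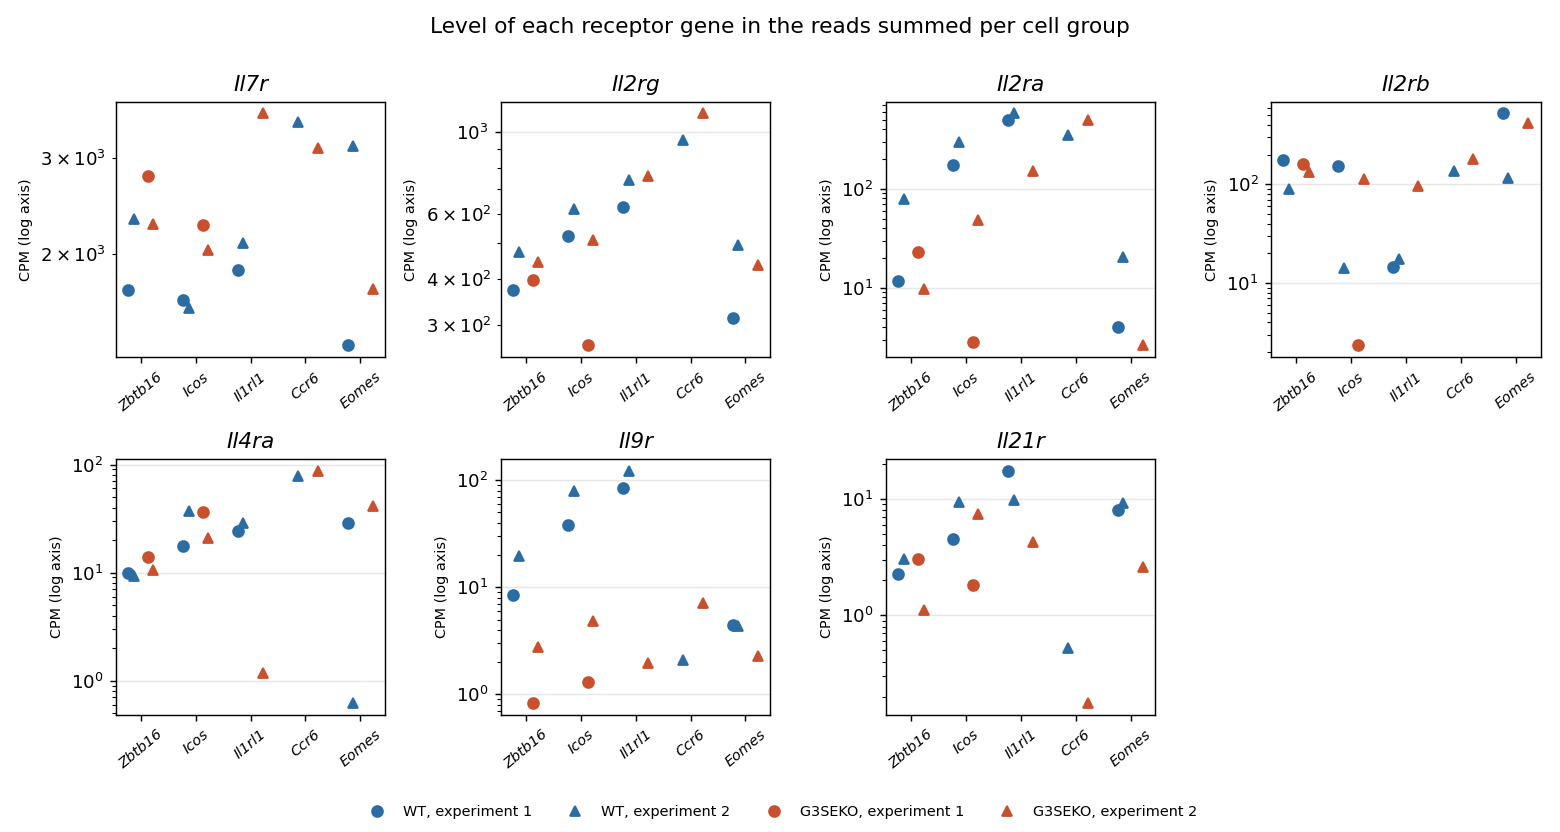
Levels of the 7 receptor genes in CPM (log axis, a separate range for each gene) in the reads summed over the cells of each gate group; each point is 1 sum of at least 5 cells, blue for WT and red for G3SEKO, circles for experiment 1 and triangles for experiment 2. All 4 G3SEKO points of Il9r in Zbtb16 and Icos cells lie below the 4 WT points of these groups, and the Il2rb points of WT Il1rl1 cells, at 14.4 and 17.5 CPM, lie below those of Zbtb16 cells.

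Between WT Zbtb16 and Il1rl1 cells, the alpha and beta chains for IL-2 ran in opposite directions. Il2ra was 11.8 and 79.9 CPM in Zbtb16 cells, 173 and 299 CPM in Icos cells, and 500 and 582 CPM in Il1rl1 cells of experiments 1 and 2. It was 349 CPM in Ccr6 cells and 3.98 and 20.4 CPM in Eomes cells. The Icos and Il1rl1 cells of both experiments lay above all Zbtb16 and Eomes sums. As a ratio, the levels in Zbtb16 cells lay further apart between the experiments than those in Il1rl1 cells.

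Il2rb was 178 and 89.5 CPM in WT Zbtb16 cells, 14.4 and 17.5 CPM in Il1rl1 cells and 527 and 116 CPM in Eomes cells. In Ccr6 cells it was 136 CPM. The WT Icos cells of experiment 1 had 155 CPM, with 38.3% of the reads from 1 cell, against 14.1 CPM in experiment 2. The Il1rl1 cells thus lay below the Zbtb16 and Eomes cells in each experiment, while the Icos cells were near the Zbtb16 cells in experiment 1 and near the Il1rl1 cells in experiment 2.

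Il9r, the IL-9 receptor of ILC2s, was 8.53 and 19.6 CPM in WT Zbtb16 cells, 38.0 and 79.2 CPM in Icos cells and 85.3 and 122 CPM in Il1rl1 cells. The Ccr6 cells had 2.08 CPM (4 reads) and the Eomes cells 4.41 and 4.34 CPM. The sums of these groups did not overlap across experiments between Zbtb16 and Icos cells or between Icos and Il1rl1 cells, although the margin between the higher Icos and the lower Il1rl1 sum was small. In Zbtb16 cells of experiment 1, 48.9% of the reads came from 1 cell.

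Il4ra and Il21r, the chains for IL-4 and IL-21, were read from few cells. Il4ra was 9.81 and 9.35 CPM in WT Zbtb16 cells, 17.5 and 37.3 CPM in Icos cells, 24.4 and 28.6 CPM in Il1rl1 cells and 77.9 CPM in Ccr6 cells. The Eomes cells had 29.0 CPM in experiment 1 and 0.619 CPM (1 read) in experiment 2. Il21r was 2.27 and 3.04 CPM in Zbtb16, 4.51 and 9.43 CPM in Icos, 17.5 and 9.81 CPM in Il1rl1 and 8.03 and 9.29 CPM in Eomes cells, and Ccr6 cells held 1 read. For Il4ra a single cell gave 50.5% of the reads in Zbtb16 and 62.9% in Icos cells of experiment 1, so the order of the Icos and Il1rl1 cells is not set by these sums.

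Il15ra, the private chain of the IL-15 receptor, was counted with the partner subunits. It was 13.6 and 2.52 CPM in WT Zbtb16 cells, 18.7 and 18.8 CPM in WT Il1rl1 cells and 0.121 and 10.5 CPM in WT Eomes cells.

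In edgeR's quasi-likelihood test with the experiment as a block, none of the 35 values (7 genes in 5 WT comparisons) passed an adjusted p of 0.05. The same test called 14 of 19776 genes (0.0708%) between Il1rl1 and Zbtb16 cells, 1 (0.00506%) between Icos and Zbtb16 cells, 0 (0%) between Il1rl1 and Icos cells, 11 (0.0556%) between Ccr6 and Zbtb16 cells and 2 (0.0101%) between Eomes and Zbtb16 cells. At an unadjusted p under 0.05, 9 of the 35 values passed. Between Il1rl1 and Zbtb16 cells these were Il9r, higher by 3.06 ± 0.78 (log2 fold change ± SE, adjusted p = 0.387), Il2rg, higher by 0.76 ± 0.20 (adjusted p = 0.405), Il2ra, higher by 4.15 ± 1.13 (adjusted p = 0.430), and Il21r, higher by 2.46 ± 1.06 (adjusted p = 0.755), where 6.5% of all genes passed the same limit. Between Icos and Zbtb16 cells they were Il9r (2.14 ± 0.75), Il2ra (2.83 ± 1.06) and Il2rg (0.50 ± 0.20), each at an adjusted p of 1, where 4.66% of all genes passed. Between Ccr6 and Zbtb16 cells they were Il2rg, higher by 0.98 ± 0.25 (adjusted p = 0.289), and Il9r, lower with a log2 fold change of -3.16 ± 1.12 (adjusted p = 0.469), where 8.81% of all genes passed. The median log2 fold change of the 7 genes between Il1rl1 and Zbtb16 cells was 1.56, beside 0.06 over all genes tested.

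DESeq2 on the same sums called 6 of the 35 values. Il9r (adjusted p = 1e-08), Il2ra (0.00459) and Il2rg (0.0283) rose from Zbtb16 to Il1rl1 cells, where DESeq2 called 3.34% of the genes it tested. Il9r also rose from Zbtb16 to Icos cells (adjusted p = 0.00209), beside 0.868% of genes. Il2rg rose (adjusted p = 0.00151) and Il9r fell (adjusted p = 0.0297) from Zbtb16 to Ccr6 cells, beside 6.32% of genes. When every cell was first thinned to the read minimum of experiment 2, edgeR called Il2ra up and Il2rb down between Il1rl1 and Zbtb16 cells (3.75% of genes called) and between Icos and Zbtb16 cells (1.33%), and Il2ra and Il4ra up in Ccr6 cells (2.06%). With experiment 1 summed per hashtag, Il2ra and Il2rg were called up and Il2rb down between Il1rl1 and Zbtb16 cells, beside 1.13% of genes. In these hashtag sums Il2ra ranged from 411 to 568 CPM over the 3 WT hashtags in Il1rl1 cells and from 3.08 to 17.0 CPM in Zbtb16 cells, with no overlap. Il2rb ranged from 9.97 to 19.8 CPM against 141 to 203 CPM in the same cells. The calls on Il2ra, Il2rb, Il2rg, Il9r and Il4ra thus differed between settings, and thinning also changed the gated cells, their weights and the number of genes tested (12258), while no fitted setting turned the direction of a value named here.

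At equal depth, Il2ra and Il9r were read in larger shares of WT Il1rl1 than of WT Zbtb16 cells, and Il2rb in smaller shares. Every cell was thinned to the read minimum that cells of experiment 2 had to pass, the gates were applied again to the thinned reads, and shares are given with exact (Clopper-Pearson) 95% intervals that cover counting error only, since the values are read counts. Il2ra was read in 59.7% of 372 WT Il1rl1 cells of experiment 1 (54.5 to 64.7%) and in 59.3% of 3224 cells of experiment 2 (57.6 to 61.0%). In WT Zbtb16 cells the share was 3.53% (0.734 to 9.97%) and 15.7% (10.9 to 21.7%). Before thinning, these shares were 88.2 and 71.1% in Il1rl1 and 77.3 and 31.0% in Zbtb16 cells, so that they moved with depth.

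Il2rb was read in 40% (29.5 to 51.2%) and 20.9% (15.4 to 27.4%) of WT Zbtb16 cells but in 3.76% (2.07 to 6.23%) and 2.92% (2.36 to 3.56%) of WT Il1rl1 cells. In WT Eomes cells it was read in 68.4% of 19 and in 21.7% of 23 cells, and in WT Ccr6 cells in 20.6% of 34 (8.70 to 37.9%), so that in experiment 2 the Zbtb16, Ccr6 and Eomes cells were not separated. Il9r was read in 18.0% (14.2 to 22.3%) and 20.1% (18.7 to 21.5%) of WT Il1rl1 cells and in 3.53 and 5.24% of WT Zbtb16 cells. In Ccr6 cells Il9r was read in 1 of 34 WT cells (2.94%, 0.0744 to 15.3%) and 3 of 100 G3SEKO cells (3%, 0.623 to 8.52%). Their median depths before thinning were 32320 and 42490 reads. The WT Zbtb16 shares of Il9r lay inside these wide intervals, so that the shares do not separate these groups. On the sums, DESeq2 called Il9r lower in WT Ccr6 than in WT Zbtb16 cells. No background share of Il9r was measured.

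**Figure D2:**
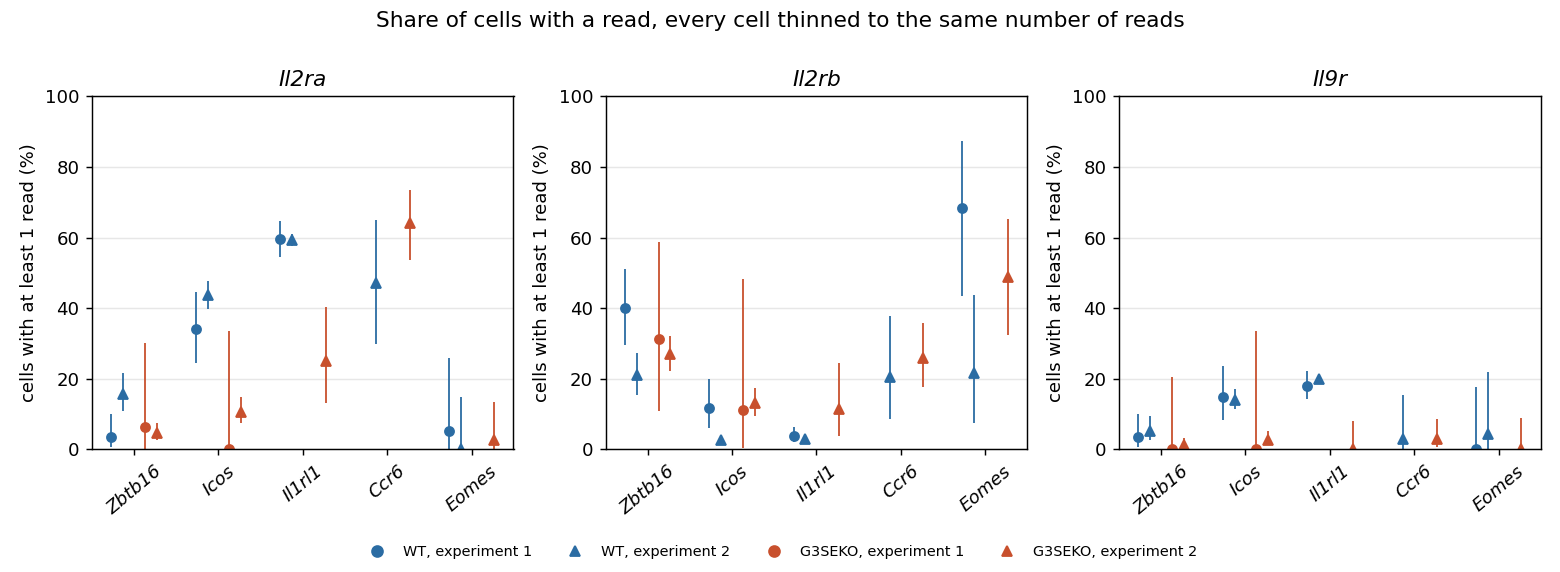
Share of cells with at least 1 read of Il2ra, Il2rb and Il9r after every cell was thinned to the same number of reads, with exact 95% intervals (counting error only); blue WT, red G3SEKO, circles experiment 1, triangles experiment 2. Il2ra and Il9r shares are highest in WT Il1rl1 cells among WT groups, at 59.7 and 59.3% and at 18.0 and 20.1%, and Il2rb shares there are 3.76 and 2.92%.

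At the depth of experiment 1, where cells were thinned to the higher read minimum of that experiment and gated again, members were also read together. All 3 chains of the high-affinity IL-2 receptor (Il2ra, Il2rb and Il2rg) were read in 9.98% of WT Il1rl1 cells, in 12.3% of WT Icos cells and in 15.6% of WT Zbtb16 cells. Il2rb with Il2rg, the signalling pair for IL-15, was read in 10.5% of Il1rl1, 30.9% of Icos, 50% of Zbtb16 and 91.7% of Eomes cells. Il7r with Il2rg was read in 88.6% of Il1rl1 and 91.1% of Zbtb16 cells. Il2ra was read in 82.6% of the Il1rl1 cells with an Il9r read (75.7 to 88.2%). It was read in 76.3% of those without (70.7 to 81.3%), and the intervals overlap. With an Il2rb read the share was 92.2% (81.1 to 97.8%), against 76.8% (72.1 to 81.0%) without, with intervals narrowly apart. At the lower depth common to both experiments, the shares with and without an Il9r read were 58.2% (45.5 to 70.2%) and 60.0% (54.3 to 65.5%) in experiment 1. In experiment 2 they were 63.7% (59.8 to 67.4%) and 58.2% (56.3 to 60.2%), so that the order differed between the experiments. With and without an Il2rb read they were 75.5% (65.6 to 83.8%) and 58.8% (57.1 to 60.6%) in experiment 2. In experiment 1 these intervals overlapped (78.6% and 58.9%). In WT Zbtb16 cells Il2ra was read in 8 of 10 cells with Il9r in experiment 2, against 12.2% without, and in 0 of 3 in experiment 1. By Il2rb it was 2.5% with and 19.2% without in experiment 2, the other way from Il1rl1 cells. The exact 95% intervals of the share with all 3 IL-2 receptor chains overlapped, at 7.28 to 13.2% in Il1rl1, 6.08 to 21.5% in Icos and 8.77 to 24.7% in Zbtb16 cells. At the lower depth common to both experiments these shares in Il1rl1, Icos and Zbtb16 cells were 2.69, 1.06 and 1.18% in experiment 1 and 1.46, 0.649 and 0.524% in experiment 2. They were highest in Il1rl1 cells, so that the order changed with depth, and their intervals overlapped in both experiments. Among these 3 chains at the depth of experiment 1, Il2rb was least often read in WT Il1rl1 cells (12.1%) and Il2ra in WT Zbtb16 cells (26.7%).

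In Zbtb16, Icos and Il1rl1 cells, the sums of Il9r were lower in G3SEKO than in WT in each of the 5 pairs within an experiment, whereas in Ccr6 cells of experiment 2 Il9r was 7.20 CPM in G3SEKO (41 reads, 68.3% from 1 cell) against 2.08 CPM in WT. In Zbtb16 cells it was 0.831 against 8.53 CPM in experiment 1 and 2.76 against 19.6 CPM in experiment 2. In Icos cells it was 1.30 against 38.0 CPM and 4.85 against 79.2 CPM. In Il1rl1 cells of experiment 2 it was 1.95 against 122 CPM, and the 5 reads behind the first value came from 1 of 50 cells. The G3SEKO and WT sums of these 3 groups did not overlap across the experiments. Per hashtag of experiment 1, however, Il9r in WT Zbtb16 cells was 27.8, 0.703 and 0.945 CPM, against 0.613 and 0.509 CPM in the 2 G3SEKO hashtags with at least 5 Zbtb16 cells, so that the gap in the sum of that experiment came from 1 WT hashtag.

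The log2 fold changes of Il9r by edgeR were -3.04 ± 0.78 in Zbtb16 cells (adjusted p = 1), -4.40 ± 0.83 in Icos cells (adjusted p = 0.880) and -6.34 ± 1.28 in Il1rl1 cells (adjusted p = 0.513). edgeR called 0 of the 21 values of the 7 genes in the genotype comparisons and 0 of 19776 genes in each (0%, 0% and 0%). At an unadjusted p under 0.05, 5 of the 21 values passed, which were Il9r in all 3 groups and Il2ra and Il2rg in Icos cells, where 2.12% of all genes passed in Zbtb16, 4.26% in Icos and 5.5% in Il1rl1 cells. DESeq2 called Il9r lower in all 3 groups, with adjusted p = 2.18e-05 in Zbtb16 cells (0.0458% of genes called), 5.06e-12 in Icos cells (0.883%) and 2.76e-09 in Il1rl1 cells (2.53%). With thinned cells, edgeR called Il9r lower in Icos cells (adjusted p = 0.0440, 0.612% of genes called) and in Il1rl1 cells (adjusted p = 0.0109, 1.07%), where no thinned G3SEKO cell held a read.

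By cells, Il9r was read in 0 of 44 thinned G3SEKO Il1rl1 cells, with an upper exact limit of 8.04%, against 20.1% of WT cells. In Icos cells of experiment 2 the shares were 2.68% of 299 G3SEKO cells (1.16 to 5.20%) and 14.1% of 616 WT cells (11.5 to 17.1%), with intervals apart. In the Zbtb16 cells of both experiments and the Icos cells of experiment 1 the intervals overlapped. In Zbtb16 cells of experiment 2 the shares were 1.23% (0.335 to 3.11%) in G3SEKO and 5.24% (2.54 to 9.42%) in WT. In experiment 1, Il9r was read in 0 of 16 G3SEKO against 3 of 85 WT Zbtb16 cells, and in 0 of 9 G3SEKO Icos cells (upper limit 33.6%) against 14.9% of 94 WT Icos cells. G3SEKO cells of experiment 2 were the deeper ones before thinning.

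Il2ra was lower in G3SEKO in 4 of the 5 pairs of sums. In Icos cells it was 2.85 CPM (11 reads) in G3SEKO against 173 CPM in WT of experiment 1, and 48.5 against 299 CPM in experiment 2, a log2 fold change of -3.75 ± 1.12 (edgeR adjusted p = 0.880). DESeq2 (adjusted p = 0.0477) and edgeR on thinned cells (adjusted p = 0.000719) called it lower. In Il1rl1 cells it was 151 against 582 CPM. In Zbtb16 cells it was 23.3 against 11.8 CPM in experiment 1, where 78.2% of the G3SEKO reads came from 1 of 17 cells, and 9.80 against 79.9 CPM in experiment 2. The direction in Zbtb16 cells thus differed between the experiments.

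For Il2rb the G3SEKO values ran the other way in experiment 2, at 133 against 89.5 CPM in Zbtb16, 114 against 14.1 CPM in Icos and 95.9 against 17.5 CPM in Il1rl1 cells. In experiment 1 the Zbtb16 cells had 160 against 178 CPM and the Icos cells 2.33 against 155 CPM, with 9 reads from 1 of 6 G3SEKO cells. No setting called Il2rb between genotypes. In Icos and Il1rl1 cells the NK and ILC1 list differed in the same direction as Il2rb. In experiment 2 it was 133 CPM in G3SEKO against 8.54 CPM in WT Icos cells and 43.7 against 10.97 CPM in Il1rl1 cells. In Icos cells of experiment 1 it was 2.33 against 141 CPM. In Zbtb16 cells of experiment 2 the list and Il2rb were both higher in G3SEKO. In Zbtb16 cells of experiment 1, however, the list was far lower in G3SEKO than in WT, while Il2rb was near its WT level. The part of this list in the Il2rb values was not tested.

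Il7r was 2784 against 1714 CPM and 2266 against 2319 CPM in Zbtb16 cells, 2257 against 1643 CPM and 2029 against 1589 CPM in Icos cells, and 3634 against 2096 CPM in Il1rl1 cells, in G3SEKO against WT. Il2rg was 398 against 374 CPM and 446 against 473 CPM in Zbtb16 cells and 760 against 745 CPM in Il1rl1 cells. In Icos cells Il2rg was 264 against 524 CPM in experiment 1, where 74.3% of the G3SEKO reads came from 1 cell, and 509 against 621 CPM in experiment 2, a log2 fold change of -0.66 ± 0.20 (edgeR adjusted p = 0.880). The ratios of Il7r and Il2rg between genotypes were thus smaller than those of Il9r in each of the 3 groups.

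Il4ra was 14.0 against 9.81 CPM and 10.6 against 9.35 CPM in Zbtb16 cells, and 36.0 against 17.5 CPM and 21.1 against 37.3 CPM in Icos cells. Il1rl1 cells had 1.17 CPM (3 reads) against 28.6 CPM. Il21r was 3.07 against 2.27 CPM and 1.12 against 3.04 CPM in Zbtb16 cells, 1.81 against 4.51 CPM and 7.45 against 9.43 CPM in Icos cells, and 4.29 against 9.81 CPM in Il1rl1 cells. Neither Il4ra nor Il21r passed in any genotype comparison at an unadjusted p of 0.05.

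The difference of the genotype effects, Il1rl1 minus Zbtb16 cells, asked whether a gene differed more in one group than in the other. None of the 7 genes passed by edgeR (0 of 19776 genes called, 0%) or by DESeq2 (148 of 14791 genes). At an unadjusted p under 0.05 edgeR gave Il9r, with a log2 difference of -3.29 ± 1.29 (adjusted p = 1), where 4.12% of all genes passed. The comparisons of Zbtb16, Icos and Il1rl1 cells share libraries, so the groups are not independent.

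**Figure D3:**
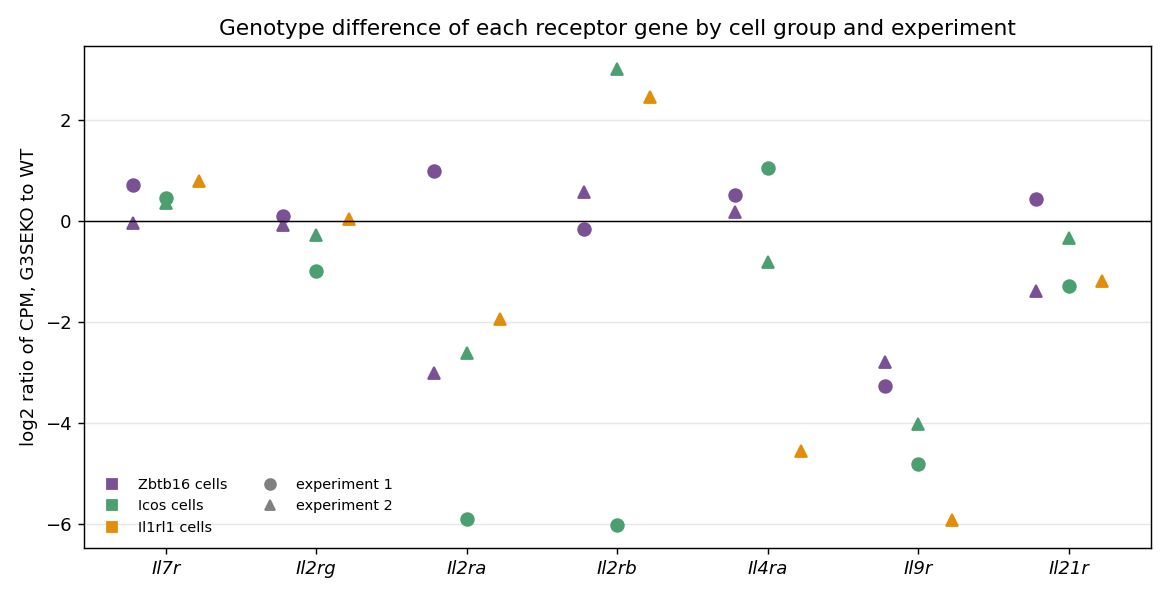
Log2 ratio of the CPM of each receptor gene, G3SEKO to WT, with 2 reads added to each sum, in Zbtb16 (purple), Icos (green) and Il1rl1 cells (orange); circles experiment 1, triangles experiment 2, and a line at 0. All 5 points of Il9r lie between -5.93 and -2.80, while the points of Il2rg lie between -0.99 and 0.09 and the 2 Icos points of Il2rb lie at -6.02 and 3.01.

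Marker lists moved with genotype inside the gates. The ILCP list was 1687 CPM in G3SEKO and 151 CPM in WT Il1rl1 cells of experiment 2, and 1306 against 362 CPM in Icos cells. The T-cell list (Cd3d, Cd3e, Cd3g, Trac, Trbc1) was 1626 against 291 CPM in Il1rl1 and 1876 against 657 CPM in Icos cells, of which Trbc1 alone gave 1503 and 1814 CPM in G3SEKO, whereas it was 2298 against 2279 CPM in Zbtb16 cells of that experiment. Il18r1, the IL-18 receptor that marks the earlier ILC2-committed cells, was 877 against 53.6 CPM in Il1rl1 cells and 955 against 281 CPM in Icos cells. In Icos cells of experiment 1, with 6 G3SEKO cells, the ILCP list was 1028 against 819 CPM and the T-cell list 2762 against 1289 CPM. The lymphoid tissue inducer list was 1091 against 136 CPM in those cells. In experiment 2 it was 344 against 88.7 CPM in Icos and 221 against 26.6 CPM in Il1rl1 cells. The part of the marker lists in the member values was not tested. Where Zbtb16 cells of experiment 1 were limited to those at or above the gate limit for Bcl11b, an ILC2 commitment factor, Il9r was 0.980 CPM in 9 G3SEKO cells and 0.906 CPM in 33 WT cells. In experiment 2 it was 1.43 against 15.8 CPM on the same side, so that the experiments differed in these cells, with near-equal values in experiment 1. Below the Bcl11b limit it was 0.516 against 14.1 CPM in experiment 1 and 3.44 against 21.7 CPM in experiment 2.

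The Icos and Il1rl1 cells were also split at the gate limit for Il18r1. Il2ra was lower in G3SEKO in 4 of the 5 pairs of sums and near its WT level in the other, the Icos cells of experiment 2 at or above the limit. In WT Icos cells with Il18r1 below the limit, Il2ra was 430 CPM in 36 cells and 432 CPM in 446 cells of experiments 1 and 2, near its level in Il1rl1 cells, and in those at or above the limit it was 55.9 CPM in 44 cells and 40.3 CPM in 118 cells. G3SEKO Icos cells at or above the limit, 265 in experiment 2 and 6 in experiment 1, had 38.0 and 2.85 CPM. Below the limit, 47 G3SEKO Icos cells of experiment 2 had 138 CPM. In experiment 2 the Il2ra level of Icos cells was thus 38.0 against 40.3 CPM once both genotypes were limited to cells with Il18r1. The edgeR log2 fold change of Il2ra in Icos cells went from -3.75 to -1.82 ± 1.11 (adjusted p = 0.878) under that limit, which was chosen after the data were seen.

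Il9r stayed lower in G3SEKO cells on both sides of the split. In Icos cells at or above the limit it was 1.30 against 22.9 CPM in experiment 1 and 5.36 against 43.4 CPM in experiment 2, a log2 fold change of -3.44 ± 0.86 (adjusted p = 0.878). Below the limit it was 0.492 against 97.6 CPM in experiment 2. In Il1rl1 cells at or above the limit it was 2.30 against 87.6 CPM, and in the 13 G3SEKO cells below it there was no read against 125 CPM in WT. Il2ra in Il1rl1 cells was 153 against 374 CPM above and 139 against 597 CPM below the limit.

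**Figure D4:**
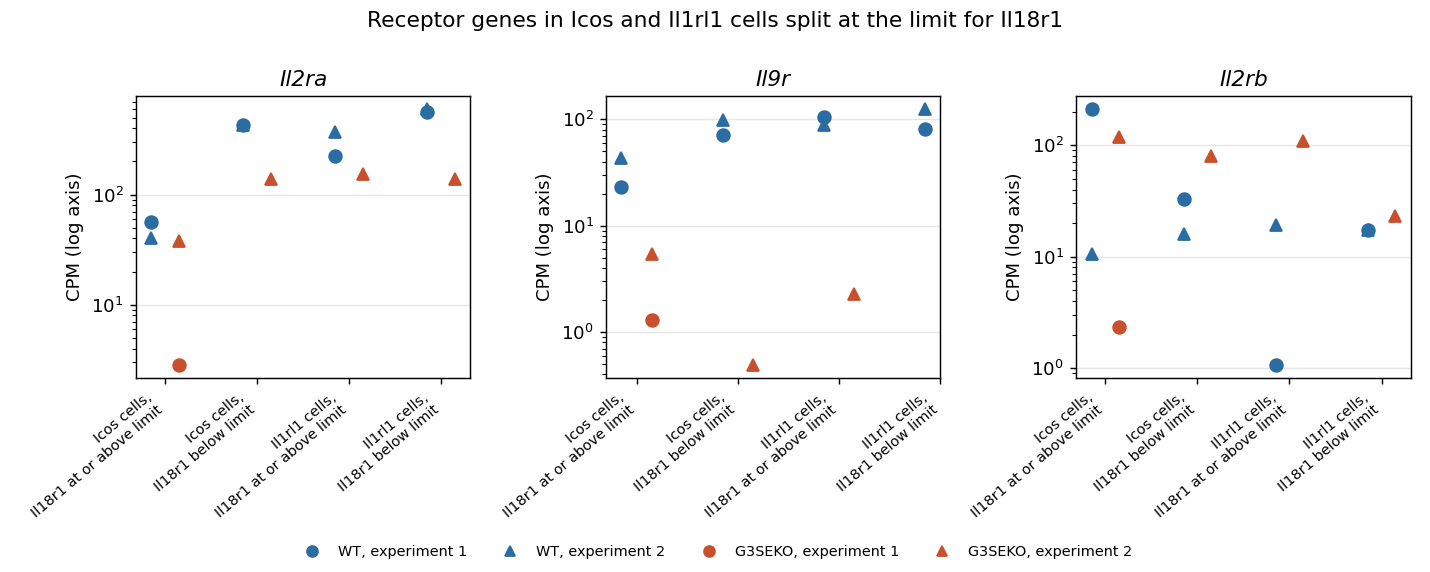
Levels of Il2ra, Il9r and Il2rb in CPM (log axis) in Icos and Il1rl1 cells with Il18r1 at or above or below the gate limit; blue WT, red G3SEKO, circles experiment 1, triangles experiment 2, and each point 1 sum of at least 5 cells. The triangles of Il2ra in Icos cells with Il18r1 lie together at 38.0 and 40.3 CPM, whereas those of Il9r lie apart at 5.36 and 43.4 CPM; Il9r of G3SEKO Il1rl1 cells below the limit is at 0 and is not drawn.

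The genotype comparison of Ccr6 and Eomes cells, with G3SEKO sums from experiment 2 alone, was not tested here. In Ccr6 cells the G3SEKO and WT levels were 3133 and 3503 CPM for Il7r, 1128 and 955 CPM for Il2rg, 494 and 349 CPM for Il2ra, 181 and 136 CPM for Il2rb and 87.5 and 77.9 CPM for Il4ra. Il9r was 7.20 and 2.08 CPM there, and Il21r had 1 read in each. In Eomes cells of G3SEKO, Il2rb was 423 CPM against 116 CPM in WT of that experiment and 527 CPM in WT of experiment 1, so that the G3SEKO value lay inside the WT range. Il2ra was read in 64.0% of 100 thinned G3SEKO Ccr6 cells (53.8 to 73.4%) and in 47.1% of 34 WT cells (29.8 to 64.9%), with intervals that overlap.

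The cells past no gate numbered 738 WT and 292 G3SEKO cells in experiment 2. Il2ra was 489 against 191 CPM and Il9r 92.6 against 8.40 CPM in them, in WT against G3SEKO, and Il2rb was 36.9 against 154 CPM. In the same order, the ILCP list was 296 against 1902 CPM, the T-cell list 462 against 1634 CPM, the lymphoid tissue inducer list 60.0 against 243 CPM and the NK and ILC1 list 21.5 against 97.5 CPM, and their part in these values was not tested. In experiment 1 the 12 G3SEKO cells past no gate held myeloid genes at a summed 53407 CPM, and their values are not used.

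Genes that act with these receptors were taken from a list of 34 (cytokines, partner subunits, kinases and STATs, adaptors, negative regulators, and STAT5 targets with survival genes), of which 32 were tested and Il9 and Il13ra1 were not analysed here. edgeR called 1 of the 32, Bcl2, between WT Il1rl1 and Zbtb16 cells, and 0 in the other 8 comparisons. At an unadjusted p under 0.05, 9 of 32 passed between Il1rl1 and Zbtb16 cells (7 higher, 2 lower), beside 6.5% of all genes, 6 between Icos and Zbtb16 cells (4.66%), 2 between Il1rl1 and Icos cells (2.43%), 5 between Ccr6 and Zbtb16 cells (8.81%) and 3 between Eomes and Zbtb16 cells (8.11%). In the genotype comparisons 0 passed in Zbtb16 cells (2.12%), 2 in Icos cells (4.26%) and 3 in Il1rl1 cells (5.5%).

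Bcl2, a survival factor downstream of IL-7, fell by 2.84 ± 0.30 on the log2 scale from Zbtb16 to Il1rl1 cells in WT (adjusted p = 0.0231), from 1643 and 1652 CPM to 190 and 255 CPM. In G3SEKO Il1rl1 cells Bcl2 was 899 CPM, a log2 fold change of 1.84 ± 0.34 against WT (edgeR adjusted p = 0.468, DESeq2 adjusted p = 0.00769). Genes called by DESeq2 alone included the negative regulator Socs2. Socs2 was 56.8 and 40.2 CPM in WT Il1rl1 against 2.88 and 7.35 CPM in WT Zbtb16 cells, and it was 3.90 CPM in G3SEKO Il1rl1 cells. DESeq2 called Socs2 in the difference of the genotype effects (adjusted p = 0.0105) where edgeR did not (adjusted p = 1). Cish, a STAT5-induced inhibitor, was 167 and 284 CPM in WT Il1rl1 and 1.19 and 33.0 CPM in WT Zbtb16 cells. It was called higher there by DESeq2 and by edgeR on thinned cells and on sums per hashtag, but not in the main fit. Between these groups DESeq2 called 4 of the 32 genes higher and 2 lower, beside 3.34% of genes. They were Bcl2, Cish, Il4, Pim1, Ptpn6 and Socs2. Among the cytokines DESeq2 called Il4, at 40.2 and 30.4 CPM in WT Il1rl1 cells against 0.390 CPM in G3SEKO Il1rl1 cells (DESeq2 adjusted p = 0.00944, edgeR adjusted p = 0.762). The G3SEKO sum held 2564765 reads from 50 cells, so that its Il4 value lies at the floor.

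The genes whose levels ran most like each member over the 16 sums were listed by Pearson's r of log2 CPM centred within experiments, among 8207 genes. They were Flrt2 (r = 0.93), Denn2b (0.91) and Rnf128 (0.90) for Il9r, and Ly6a (0.96), Hpn (0.91) and Mndal (0.90) for Il2ra. Il2rg ran with B2m (0.96), Tnfrsf11a (0.92) and Ifi203 (0.91), and Il2rb with Wdfy4 (0.94), Hhex (0.94) and Rgs3 (0.92). For Il7r they were Snap23 (0.86), Mkrn1 (0.86) and Fbxl20 (0.82), for Il4ra Snhg16 (0.94), Parl (0.91) and Camta2 (0.87), and for Il21r Acp5 (0.87), Slain1 (0.85) and Rplp2 (0.84). Among the members themselves r was highest for Il2rg with Il2ra (0.88) and Il2ra with Il9r (0.65), and lowest for Il7r with Il9r (-0.52). The sums of an experiment share a library, and these values describe the 16 sums only.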

How the data were processed

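αLPs of both genotypes were sorted, tagged with hashtag antibodies and sequenced as 1 TAS-Seq library (bead-based single-cell RNA-seq) per experiment. The authors aligned reads with Bowtie2 to GRCm38 and deposited raw read counts per gene and cell. Whether PCR copies were collapsed is not given in the sources used here, and intervals cover counting error only. Hashtag read counts were deposited in separate tables. Genotypes came from the authors' hashtag calls in the cell names, and 102 cell columns without a single call were left out of the groups. Cells above the read minimum of their experiment with at most 10% mitochondrial reads were kept: 800 of 1033 listed cells in experiment 1 and 7522 of 7630 in experiment 2, before the Id2 limit. No doublet caller was run beyond the hashtag calls, and 5 cell barcode numbers of experiment 1 recurred in experiment 2.

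Reads were summed over each gate group, genotype and experiment with at least 5 cells, and 16 sums and 19776 genes entered edgeR 4.0.16 (R 4.3.3; TMM, quasi-likelihood test, Benjamini-Hochberg adjustment over all genes). The experiment was a block, because every sum of an experiment came from the same library, and 5 residual degrees of freedom were left. DESeq2 1.42.0, other filters, gate limits, hashtag calls, sums per hashtag and thinned cells were alternatives. The script was tested on simulated data. The members, gene lists and tests were chosen with earlier results of these data known. Named were the 7 members, Il15ra, the gate genes, Id2 and Gata3, pathway genes where a test called them, and the 3 genes most like each member. Tcf7, Rora, Trbc1, Il5, Il13, Il18r1 and Bcl11b, all from the marker lists, were named, and cells split on the last 2, after their values were seen.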

Additional observations from a re-analysis of the deposited data

Results flagged for a closer look

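In experiment 2, 80 cells that the authors' hashtag calls named doublets passed the limits on reads, mitochondrial reads and Id2 but entered no comparison. All 7 receptor genes were read in them, which is the reason they are given here. Their summed levels were 2248 CPM for Il7r, 612 CPM for Il2rg, 246 CPM for Il2ra, 105 CPM for Il2rb, 16.8 CPM for Il4ra, 24.2 CPM for Il9r and 21.8 CPM for Il21r. No group held the 4 samples needed to look for a sample that stands apart.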

How the results depend on the processing

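By edgeR with the experiment as a replicate block, 0 members were called in each of the 3 sets of comparisons, and 0 were called without the block. DESeq2 called 6 of the 35 WT values and 4 of the 21 genotype values, edgeR on thinned cells called 6 and 3, and sums per hashtag called 3 WT values. Under the other filters, Id2 and gate limits, hashtag calls and the limit on Il18r1, the last chosen after the data were seen, the counts were 0. None of the settings named so far called a member in the difference of the genotype effects. A limit to Zbtb16 and Icos cells without an Il1rl1 read was also chosen after the data were seen. In experiment 1 it left 8 WT Icos cells and no WT Zbtb16 or G3SEKO sum. Its calls therefore could not test the main fit. The 19 log2 fold changes of members that were followed kept their direction in the alternatives that gave a value. In experiment 2 alone 4 of them moved by more than the spread between replicates, to -2.66 for Il2rb, 0.39 for Il2rg and 2.01 for Il9r between Icos and Zbtb16 cells and 0.66 for Il2rg between Il1rl1 and Zbtb16 cells. Leaving out an experiment left no residual degrees of freedom, so that its values have no test. The G3SEKO Il1rl1 cells, 50 in number, came from 1 experiment, and the 6 G3SEKO Icos cells of experiment 1 often rested on 1 cell for a gene.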
